A study of Mus musculus with 8 samples.

Results

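The cells described here are tdTomato-positive and tdTomato-negative blood stem cells of newborn mice in which no transcript of 5 mitotic genes was counted. They come from 2 pups carrying Tppp3-CreERT2, a tamoxifen-inducible Cre recombinase expressed from the Tppp3 locus, and an LSL-tdTomato reporter, which Cre switches on permanently. Both pups, and so both fractions, carried the same alleles, received tamoxifen at P0 (the day of birth, day 0) and were taken at P2 (day 2). Bone marrow and spleen cells were sorted as Epcr+ Lin- Sca-1+ Kit+, a gate for hematopoietic stem cells, and then by tdTomato. Tube 1 received 145 positive cells of pup 1 and 5500 negative cells of pup 2. Tube 2 received 180 positive cells of pup 2 and 5156 negative cells of pup 1. Each tube became 1 droplet library, so within a pup the fractions were always in different libraries.

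A cell was kept when it had at least 1000 genes and 2000 UMIs (unique molecular identifiers, counted transcripts), at most 10% mitochondrial UMIs, at least 1 UMI each of Mecom and Hlf, fewer UMIs of Mpo than of Mecom, and 0 UMIs of Top2a, Cenpf, Ube2c, Ccnb1 and Plk1. This gave 926 members of the 5678 barcodes in the tubes and of the 42451 in the series. In pup 1, 20 positive cells (7 from marrow, 13 from spleen) and 364 negative cells (117 and 247) were members. In pup 2, 26 positive cells (13 and 13) and 516 negative cells (325 and 191) were members. The 2 pups are the replicates, and cells of 1 pup are not.

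Mecom and Hlf encode transcription factors that maintain stem cells, while Mpo encodes a granule peroxidase of myeloid cells. Top2a, Cenpf, Ube2c, Ccnb1 and Plk1 are transcribed mainly as cells prepare for and pass through division, and most adult stem cells rest outside the cycle. Tppp3 encodes a tubulin-binding protein. Because recombination is permanent, tdTomato marks cells that expressed the Cre around the time of tamoxifen, together with their progeny, and not cells that transcribe Tppp3 when sampled. Epcr was stained with PE, a dye whose emission overlaps that of tdTomato, and the part of this overlap in the sort was not tested.

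The pup and tissue of each cell were read from antibody-linked hashtags of 15 bases, whose sequences are shown because they alone assign a member to a pup and, with its tube, to a fraction. TotalSeqMouse1 marked marrow of pup 1, TotalSeqMouse2 marrow of pup 2, TotalSeqMouse3 spleen of pup 1 and TotalSeqMouse4 spleen of pup 2.
TotalSeqMouse1: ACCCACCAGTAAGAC
TotalSeqMouse2: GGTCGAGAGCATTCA
TotalSeqMouse3: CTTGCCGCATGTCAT
TotalSeqMouse4: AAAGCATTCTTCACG
After subtraction of the median in cells led by another hashtag, the leading count had to exceed 50 and be at least 3 times the second. Among non-mitotic stem-gated barcodes, the lowest ratio inside this limit was 3.45 and the highest outside it, among those with over 50 counts, was 1.79. Only 6 such barcodes had no hashtag, against 926 with one. The median hashtag background was 129 for TotalSeqMouse2 in tube 1 and 88 for TotalSeqMouse1 in tube 2, and 7 or less for the other 6 pairs of hashtag and tube.

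Transcripts of sex-linked genes gave a second check of the hashtags. Xist was counted in all 20 positive and all 364 negative members of pup 1. In pup 2 it was counted in 3 of 26 positive members (11.5%) and in 2 of 516 negative members (0.388%). Y-linked genes were counted in 25 of 26 and 499 of 516 members of pup 2, and in 1 of 20 and 2 of 364 members of pup 1. The positive members of pup 2 shared their tube with negative cells of pup 1. The 2 tubes shared 3 cell barcodes, none of them a member in both.

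Among members, depth was lower in tube 1 than in tube 2 in both fractions. Over all barcodes of a tube the order was the reverse, with medians of 19688 UMIs in tube 1 and 18352.5 in tube 2. The median of members was 12001.5 UMIs in positive members of pup 1 and 13592 in negative members of pup 2 (both tube 1). It was 15999 in negative members of pup 1 and 17725 in positive members of pup 2 (both tube 2). Negative cells were therefore matched to positive cells of the same pup, up to 5 per positive cell and within 20% of its UMIs. The matched negative cells numbered 92 in pup 1 (median 12351.5 UMIs) and 124 in pup 2 (17410.5). The 4 sums of counts held 230417 UMIs for positive and 1120677 for negative cells of pup 1, and 442513 and 2017719 for those of pup 2. Of a 15-gene stem cell marker list, the 13 genes other than Mecom and Hlf, which the selection used, were all detected in each sum. They summed to 4010 and 3424 CPM (UMIs of a gene or list per 1000000 UMIs of the sum) in the positive sums of pups 1 and 2 and to 3666 and 2489 in the negative ones. Intervals below are 95% exact intervals and cover counting error only.

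Members were chosen by their hashtags and by their counts of Mecom, Hlf, Mpo and the 5 mitotic genes, and these values are given as a description with no test. Mecom stood at 2074 and 1763 CPM in the positive sums of pups 1 and 2, and at 1760 and 1167 in the negative sums. Hlf stood at 1397 and 779.6 against 1338 and 732. The lowest Mecom count of a positive member was 6 UMIs in pup 1 and 2 in pup 2, and a single positive member had only 1 Hlf UMI. Non-mitotic cells made up 36.4% (23.8 to 50.4) of positive and 23.5% (21.4 to 25.7) of negative stem-gated cells in pup 1, and 32.9% (22.7 to 44.4) and 21.2% (19.6 to 22.9) in pup 2. With stem-gated cells matched on UMIs, the negative share became 43.7% (37.6 to 49.8) in pup 1 and 16.2% (12.7 to 20.2) in pup 2, so that the order of the fractions differed between the pups.

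The targeted locus gave little signal at P2. Tppp3 (chr8:105467493-105471526, minus strand, GRCm38) had a UMI in 0 of 20 positive cells of pup 1 (0 to 16.8%) and in 3 of 26 of pup 2 (11.5%, 2.45 to 30.2%). Among matched negative cells it had one in 1 of 92 (1.09%) and 3 of 124 (2.42%). In 348 cells of the tubes with at least 10 UMIs of the neutrophil gene S100a8 and none of Mecom (median 9768 UMIs), the share was 1.44%, so the negative and pup 1 shares lie at a level that also occurs in neutrophil-type cells. Tppp3 was below the count filter and was not tested. The tdTomato transcript was not among the 32285 genes counted.

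With the fraction alone in the fit, no gene stood out from the spread between the pups, which also differed in sex-linked transcripts. That fit had 2 residual degrees of freedom, so the lack of calls does not show that the fractions were alike. By edgeR's quasi-likelihood test with Benjamini-Hochberg adjustment on the 4 sums, 0 of 9372 genes passed an adjusted p of 0.05 (0% of genes tested), with 156 at an unadjusted p under 0.05. DESeq2 called 0 as well, with 32 under 0.05. Since 1 animal gave both fractions, a fit with a term for the pup compares them within each animal. In that fit 23 genes were higher in positive cells (0.245% of genes tested) and 1 was lower (0.0107%), 24 in all (0.256%), with 447 at an unadjusted p under 0.05. Among the 23 were Fos, Tmtc2, Igf2, Malat1, Nav3, Bank1, Pak3, Itsn1, Cd200r3, Ahnak, Dlk1, Csf1, Adgre5, Plek, Lmna, Fosb, Pde3a, Mllt3, Ctnnal1, S100a4, Klf6 and Ccl4, and the 1 was Tespa1. "Rose" and "fell" below refer to this fit, and in the fit of the fraction alone none of the 24 was called.

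Those calls rest on few cells and on 1 residual degree of freedom. Leaving out the highest Scrublet doublet scores removed 1 positive cell, a spleen cell of pup 2 with 31197 UMIs. After matching anew 3 of the 23 were called, namely Fos, Tmtc2 and Bank1. In that fit Cd200r3 and Csf1 were not tested, and the other 21 of the 23 all stayed higher. Most of the same cells were used again, so there was little room for a reversal. The log2 change went from 1.04 to 1.08 for Ahnak and from 1.41 to 1.44 for Adgre5, but from 1.31 to 1.06 for Ccl4. The prior degrees of freedom, the weight of variability shared over genes, fell from infinite to 18.1. The part of this fall in the lower number of calls was not tested. Without the condition on mitotic genes, 0 genes were called with the pup term. DESeq2 with the pup term called 1 of the 23, Tmtc2. Without cells that held sex-linked transcripts of the other pup, 13 of the 23 were called with the pup term. A term for the tube in place of the pup left 2 genes, Fos and Igf2. A model with pup, tube and fraction has no residual degrees of freedom, so the tube cannot be told apart from a change that differs between the pups.

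**Figure D1:**
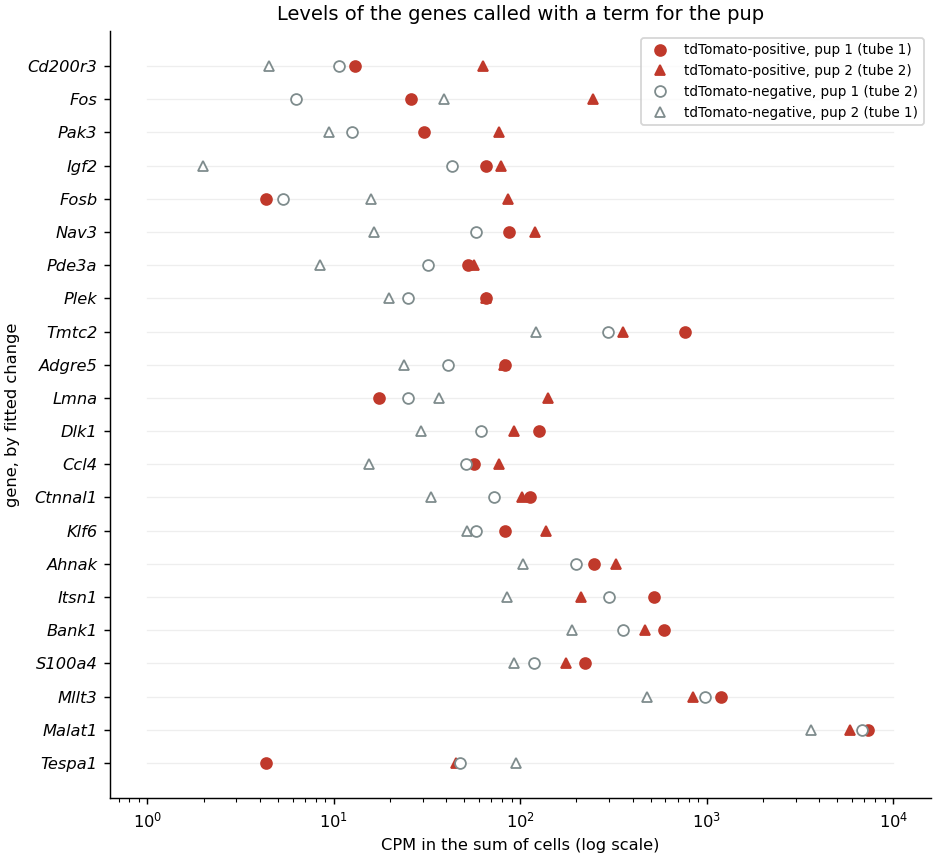
CPM (log axis) of the 22 genes called with a term for the pup that had at least 40 UMIs over the 4 sums of cells: red filled symbols are tdTomato-positive, open grey symbols negative, circles pup 1 and triangles pup 2. Both positive sums lie above both negative sums for genes such as Tmtc2, Plek and Dlk1, while the circles of Fosb and Lmna show no higher level in the positive cells of pup 1.

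Tmtc2, which encodes an endoplasmic reticulum protein with tetratricopeptide repeats, had the second lowest adjusted p (chr10:105187663-105574451, minus strand). It stood at 764 CPM in positive cells of pup 1 and 357 in those of pup 2, against 294 and 122 in negative cells. Both positive sums exceeded both negative sums. The ratio of positive to negative was 2.60 (2.15 to 3.13) in pup 1 and 2.93 (2.38 to 3.59) in pup 2. The fitted log2 change was 1.45 ± 0.179 (SE of the fit, n = 2 pups, edgeR adjusted p = 4.01e-12 with the pup term and 1.00 without it). Every SE here and below comes from the fit and draws on variability shared over genes. It does not measure the spread between the 2 pups. A single cell held 63 of the 176 UMIs in pup 1 and another held 86 of the 158 in pup 2. With the highest positive cell of each pup left out for each gene, and the same share of the highest negative cells, the log2 change of Tmtc2 was 0.97 (edgeR adjusted p = 0.00203 with the pup term).

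Bank1, known as an adaptor protein of B cell receptor signalling, rose in cells from both pups (chr3:136053363-136326066, minus strand). Its levels were 590.2 and 466 CPM in positive cells of pups 1 and 2, and 357 and 190.3 in negative cells. The positive sums were above the negative sums without overlap, by 1.65-fold (1.35 to 2.01) and 2.45-fold (2.06 to 2.90). The log2 change was 1.00 ± 0.173 (edgeR adjusted p = 1.26e-05 with the pup term, 1.00 without). The share of cells with a Bank1 UMI did not follow: it was 65.0% of positive against 77.2% of negative cells in pup 1, and 73.1% against 60.5% in pup 2. Of 9 B cell markers, 5 were at 0 in both positive sums, among them Cd79a, Vpreb3, Igll1 and Blnk, and the summed level of the list was 60.8 and 40.7 CPM in positive and 56.2 and 48.1 in negative cells.

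Among stem cell transcription factor genes, 23 of 27 were tested, and 1 rose and 0 fell. Over all genes tested 0.245% rose and 0.0107% fell, the shares to set beside this and each list count below. That gene was Mllt3, a chromatin reader that supports stem cell self-renewal. Its levels were 1193 and 847 CPM in positive and 975 and 479.8 in negative cells, so the positive sum of pup 2 lay below the negative sum of pup 1. Within each pup it was higher by 1.22-fold (1.07 to 1.398) and 1.77-fold (1.56 to 1.99). The log2 change was 0.54 ± 0.131 (edgeR adjusted p = 0.0160 with the pup term, 1.00 without). The list's median log2 change was 0.07, beside -0.01 over all genes tested, and 8 of its 23 tested genes were higher in both pups (34.8%, against 25.3% of all genes tested). Meis1, a homeodomain factor, stood at 1133 and 1146 against 1040 and 870.3 CPM and did not pass.

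Of 22 stem cell surface and related genes tested, Ctnnal1, which encodes alpha-catulin and marks stem cells in reporter mice, was the 1 that rose, and 0 fell. It was at 113 and 102 CPM in positive cells and at 72.3 and 33.2 in negative cells, with no overlap. Its log2 change was 1.15 ± 0.277 (edgeR adjusted p = 0.0165 with the pup term). Procr, which encodes the sorted surface protein Epcr, was at 86.8 and 85.9 against 112 and 41.6 CPM, so its order differed between the pups. Kit was at 321 and 221 against 272 and 251, and Slamf1 at 39.1 and 9.04 against 22.3 and 11.4. The median log2 change of the list was 0.12.

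Cytoskeleton, annexin and S100 genes were a group in which many members leaned the same way. Of 32 tested, 2 rose (Ahnak and S100a4) and 0 fell with the pup term. In all, 18 (56.2%) were higher in both pups, against 25.3% of all genes tested, and 2 were lower in both. The median log2 change was 0.29, against -0.01 over all genes tested. Both positive sums exceeded both negative sums for 11 of the 32 (34.4%, against 14.4% of all genes tested).

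Ahnak encodes a very large scaffold protein under the plasma membrane (chr19:8989284-9076914, plus strand). It was at 247 and 325 CPM in positive and 198 and 104 in negative cells. The positive sums lay above the negative ones, but by 1.25-fold (0.917 to 1.68) in pup 1 and 3.14-fold (2.52 to 3.90) in pup 2. The log2 change was 1.04 ± 0.207 (edgeR adjusted p = 0.000479 with the pup term, 1.00 without). A UMI of Ahnak was seen in 75.0% of positive and 76.1% of negative cells of pup 1, and in 88.5% and 47.6% of those of pup 2. Thus the larger share of cells with Ahnak appeared in pup 2 alone.

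S100a4, a calcium-binding protein of motile cells, was at 221 and 176 CPM in positive and 118 and 92.2 in negative cells. Its ratio was nearly the same in both pups, 1.88 (1.33 to 2.61) and 1.91 (1.45 to 2.50), and its log2 change was 0.91 ± 0.228 (edgeR adjusted p = 0.0322 with the pup term). Its related gene S100a6 was at 204 and 163 against 109 and 99.6, and Anxa5, a phospholipid-binding annexin, at 191 and 133 against 94.6 and 75.8. Neither of these was called (edgeR adjusted p = 0.222 and 0.0726 with the pup term), although both positive sums exceeded both negative sums. Vim, the intermediate filament gene, was at 516 and 936 against 449.7 and 683, a difference between pups larger than that between fractions.

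Of 17 nuclear lamina and envelope genes tested, Lmna, which encodes the A-type lamins of the nuclear envelope, was the 1 that rose (0.245% of all genes tested did). Its values were 17.4 and 140.1 CPM in positive cells and 24.98 and 36.7 in negative cells. The positive cells of pup 1 had the lowest level of the 4 sums and those of pup 2 the highest. The ratio was 0.695 (0.177 to 1.99) in pup 1 and 3.82 (2.68 to 5.43) in pup 2, and 32 of the 62 UMIs of pup 2 came from 1 cell. That cell, with 20273 UMIs, also held 1 UMI of Xist, which pup 1 expresses. Without cells holding sex-linked transcripts of the other pup the log2 change was 0.71 (edgeR adjusted p = 0.993 with the pup term). The call for Lmna (log2 change 1.38 ± 0.319; edgeR adjusted p = 0.00879 with the pup term) therefore came from pup 2.

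Immediate early genes, which are transcribed within minutes of a stimulus, gave 3 calls among 22 tested, Fos, Fosb and Klf6, where 0.245% of all genes tested were called higher. Of the 22, 7 (31.8%) were higher in both pups, against 25.3% of all genes tested, and for 6 (27.3%) both positive sums exceeded both negative ones, against 14.4%. Fos and Fosb encode subunits of the AP-1 transcription factor. The promoter of Fos is shown because the gene had the lowest adjusted p, and the capitals mark the match to TGACGT, the shared core of sites for cAMP-response factors (chr12:85473640-85473939, plus strand, RefSeq, GRCm38.p6; the window runs from 250 bases before to 50 after the start).
Fos: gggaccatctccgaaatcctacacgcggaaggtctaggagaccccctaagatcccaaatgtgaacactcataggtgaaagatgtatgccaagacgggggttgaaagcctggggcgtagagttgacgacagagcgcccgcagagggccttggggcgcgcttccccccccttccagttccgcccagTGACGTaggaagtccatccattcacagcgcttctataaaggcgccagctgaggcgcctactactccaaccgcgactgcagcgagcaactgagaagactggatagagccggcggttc
TGACGT on either strand was present in 7.51% of 32851 promoters of this length and, among 18 of the 23 genes with a promoter in the table, in those of Fos and Malat1. The AP-1 motif TGANTCA was in 7.81% of promoters and, among the 18, in that of Lmna. The longer TGACGTCA, which contains TGACGT, was in 1.79% of promoters and in none of the 18.

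Fos (chr12:85473890-85477273) was at 26.0 and 244 CPM in positive cells of pups 1 and 2, against 6.25 and 39.2 in negative cells. The positive level of pup 1 lay below the negative level of pup 2, so the sums overlapped, although the ratio was high in each pup: 4.17 (1.16 to 14.5) and 6.23 (4.62 to 8.44). The log2 change was 2.54 ± 0.304 (edgeR adjusted p = 8.26e-13 with the pup term, 1.00 without). In pup 1 the level rested on 6 UMIs in 4 of 20 cells. In pup 2 a Fos UMI was seen in 6 of 26 positive cells (23.1%) and 25% of negative cells, and 1 cell held 43 of the 108 UMIs. The difference in pup 2 thus lay in the counts of a few cells and not in the share of cells with a UMI. Without the positive cells of pup 2, and with no pup term, the log2 change of Fos was 0.016, and without the negative cells of pup 2 it was 4.58.

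Fosb was at 4.34 and 85.9 CPM in positive and 5.35 and 15.9 in negative cells, and only pup 2 had a higher level in positive cells. Klf6, a zinc finger factor, was at 82.5 and 138 against 58.0 and 52.0, with no overlap (log2 change 1.06 ± 0.268; edgeR adjusted p = 0.0340 with the pup term). Klf2 was at 43.4 and 20.3 against 6.25 and 9.42, and Nr4a1 at 13 and 36.2 against 4.46 and 10.4, both without overlap and neither called. Jun was at 91.1 and 314 against 116 and 176, and Egr1 at 4.34 and 65.5 against 22.3 and 13.4, with opposite orders in the 2 pups. The list's median log2 change was 0.37 with the pup term and 0.34 without it. The positive cells of pup 2 had the highest level of the 4 sums for Fos, Fosb, Klf6, Jun, Egr1 and Nr4a1.

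**Figure D2:**
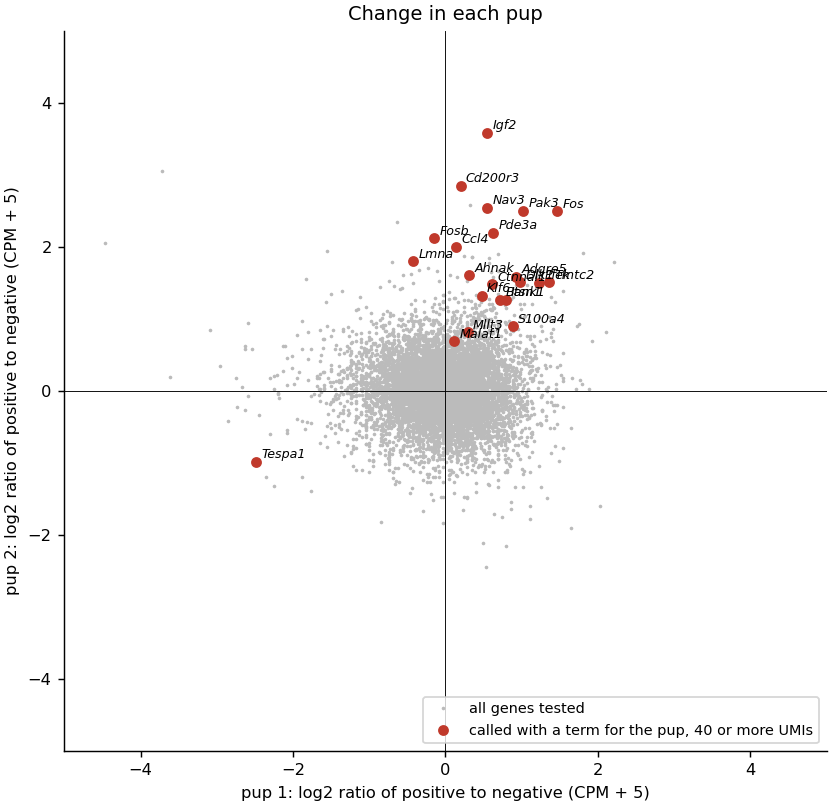
Log2 ratio of positive to negative CPM (5 added to each) in pup 1 (horizontal) and pup 2 (vertical) for the 9372 genes tested (grey) and the 22 of them called with a term for the pup that had at least 40 UMIs (red). Most red points lie further from 0 in pup 2 than in pup 1, and Fosb and Lmna lie left of 0 in pup 1.

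Imprinted genes, expressed from 1 parental allele and many of them active in fetal growth, gave 2 calls among 16 tested, Igf2 and Dlk1, and 0 lower, where 0.245% of all genes tested were called higher. Of the 16, 7 (43.8%) were higher in both pups, against 25.3% of all genes tested. Both positive sums exceeded both negative sums for 3 (18.75%, against 14.4%). The median log2 change of the list was 0.25 with the pup term and 0.17 without. Igf2, a fetal growth factor gene (chr7:142650766-142666816, minus strand), was at 65.1 and 79.1 CPM in positive cells and at 42.8 and 1.98 in negative cells. The low level in negative cells of pup 2 rested on 4 UMIs, so the ratio was 1.52 (0.791 to 2.76) in pup 1 and 39.9 (14.3 to 155) in pup 2. Igf2 UMIs were found in 8 of 20 and 8 of 26 positive cells, and in 27 of 92 and 4 of 124 negative cells, and in 1.15% of the neutrophil-type cells described above. The log2 change was 2.33 ± 0.371 (edgeR adjusted p = 1.14e-06 with the pup term, 0.00789 with a tube term).

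Dlk1, a membrane protein related to Notch ligands, was at 126 and 92.7 CPM in positive and 61.6 and 29.2 in negative cells. The sums did not overlap, and the ratio was 2.04 (1.28 to 3.197) and 3.17 (2.07 to 4.80). The log2 change was 1.34 ± 0.284 (edgeR adjusted p = 0.00202 with the pup term). It was 0.76 without cells holding sex-linked transcripts of the other pup and 1.14 without the highest cells, and Dlk1 was called in neither (edgeR adjusted p = 0.81 and 0.347 with the pup term). The cell with the most Dlk1 UMIs in pup 2 was the Xist-holding cell named for Lmna. Meg3, a noncoding RNA of the same imprinted cluster, was at 230.02 and 72.3 against 123 and 37.7 and was not called (edgeR adjusted p = 0.121 with the pup term). H19 and Cdkn1c were at 26.0 and 52.0 against 28.6 and 12.9, and at 65.1 and 83.6 against 82.1 and 46.6, and were higher in pup 2 alone.

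Among platelet and megakaryocyte genes, which a subset of stem cells expresses, 15 of 27 were tested, 1 rose (Plek) and 0 fell. Both positive sums exceeded both negative ones for 7 of the 15 (46.7%, against 14.4% of all genes tested), and the median log2 change was 0.29. Plek, which encodes the protein kinase C substrate pleckstrin, was at 65.1 and 65.5 CPM in positive and 24.98 and 19.8 in negative cells. Its ratio was 2.61 (1.29 to 5.05) and 3.31 (1.98 to 5.47), and its log2 change 1.56 ± 0.360 (edgeR adjusted p = 0.00879 with the pup term). In pup 1, 50% of positive and 19.6% of negative cells had a UMI, and in pup 2 38.5% and 21.8%. Without the highest cells Plek was no longer called (log2 change 1.66, edgeR adjusted p = 0.168 with the pup term).

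Vwf, which encodes von Willebrand factor, was at 47.7 and 40.7 against 24.1 and 13.9 CPM, Selp (P-selectin) at 39.1 and 27.1 against 8.03 and 11.9, and Cd9 at 65.1 and 92.6 against 42.8 and 44.1. None of these passed (edgeR adjusted p = 0.417, 0.275 and 0.457 with the pup term). The megakaryocyte genes Gp1bb, Gp6 and Tubb1 were at 0 in both positive sums. The summed level of 10 megakaryocyte markers was 78.1 and 85.9 CPM in positive and 95.5 and 78.3 in negative cells.

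The other calls included genes of varied function. Adgre5, the adhesion receptor CD97 and the 1 called of 22 homing and adhesion genes, was at 82.5 and 81.4 CPM against 41.0 and 23.8, with a log2 change of 1.41 ± 0.317 (edgeR adjusted p = 0.00606 with the pup term). Itsn1, an endocytic scaffold, was at 521 and 212 against 299 and 85.2 (log2 change 1.02 ± 0.198), higher in each pup but overlapping between pups. Pde3a, a cyclic nucleotide phosphodiesterase, was at 52.1 and 56.5 against 32.1 and 8.43, and Nav3, a neuron navigator gene, at 86.8 and 119.8 against 58.0 and 16.4. Both of the latter differed more in pup 2 (6.71-fold and 7.32-fold) than in pup 1 (1.62-fold and 1.497-fold), where the intervals included 1.

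Several called genes were scarce. Csf1, the macrophage growth factor gene, had 5 and 12 UMIs in positive cells and 3 and 7 in negative cells, which had about 5 times the UMIs in all. It was seen in 5 of 20 and 6 of 26 positive cells against 3 of 92 and 6 of 124 negative cells, a ratio of 8.11 (1.58 to 52.2) and 7.82 (2.84 to 23.4). Pak3, a p21-activated kinase gene, had all 7 of its positive UMIs of pup 1 in 1 cell and 20 of 34 in 1 cell of pup 2. Cd200r3, a receptor of basophils and mast cells, had 23 of 28 UMIs of pup 2 in 1 cell. Ccl4, a chemokine gene, was at 56.4 and 76.8 against 50.9 and 15.4 CPM, a ratio of 1.11 (0.557 to 2.05) in pup 1.

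The cell that carried Cd200r3 was the cell of 31197 UMIs named above. It also held 9 UMIs of Cpa3 and 11 of Ms4a2, which are mast cell and basophil genes, and the most UMIs of Ccl4, Csf1 and Plek among positive cells of pup 2. The 8 mast cell and basophil markers summed to 217 CPM in the positive cells of pup 2, all of it in this cell, against 4.34 in those of pup 1 and 2.68 and 2.97 in negative cells. With the highest Scrublet scores, and so this cell, left out, the log2 change was 1.10 for Plek and 1.06 for Ccl4 with the pup term, and neither was called. Cd200r3 and Csf1 were not tested in that fit.

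Other cells also carried many of the calls. In pup 1, 1 marrow cell of 13256 UMIs, with 50 Mecom UMIs, held the most UMIs of 11 of the 23 genes, ties included. For Csf1, 1 of the 11, every positive cell of pup 1 that had it held 1 UMI, so this cell was tied. In pup 2, 1 marrow cell of 18070 UMIs, with 69 Mecom UMIs, held the most of 6. The 2 cells had 5 of these genes in common: Ctnnal1, Igf2, Mllt3, S100a4 and Tmtc2. In 16 of the 23 genes at least 25% of the positive UMIs of a pup came from 1 cell. With the highest cells left out, 18 of the 23 were still tested, all 18 remained higher and 12 were still called: Ahnak, Adgre5, Bank1, Fos, Igf2, Itsn1, Malat1, Mllt3, Nav3, Pde3a, S100a4 and Tmtc2. For each gene this left 87 of 92 matched negative cells in pup 1 and 119 of 124 in pup 2. Fos was seen in 4 negative cells of pup 1 and Igf2 in 4 of pup 2. For these 2 genes no negative UMI of that pup remained.

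**Figure D3:**
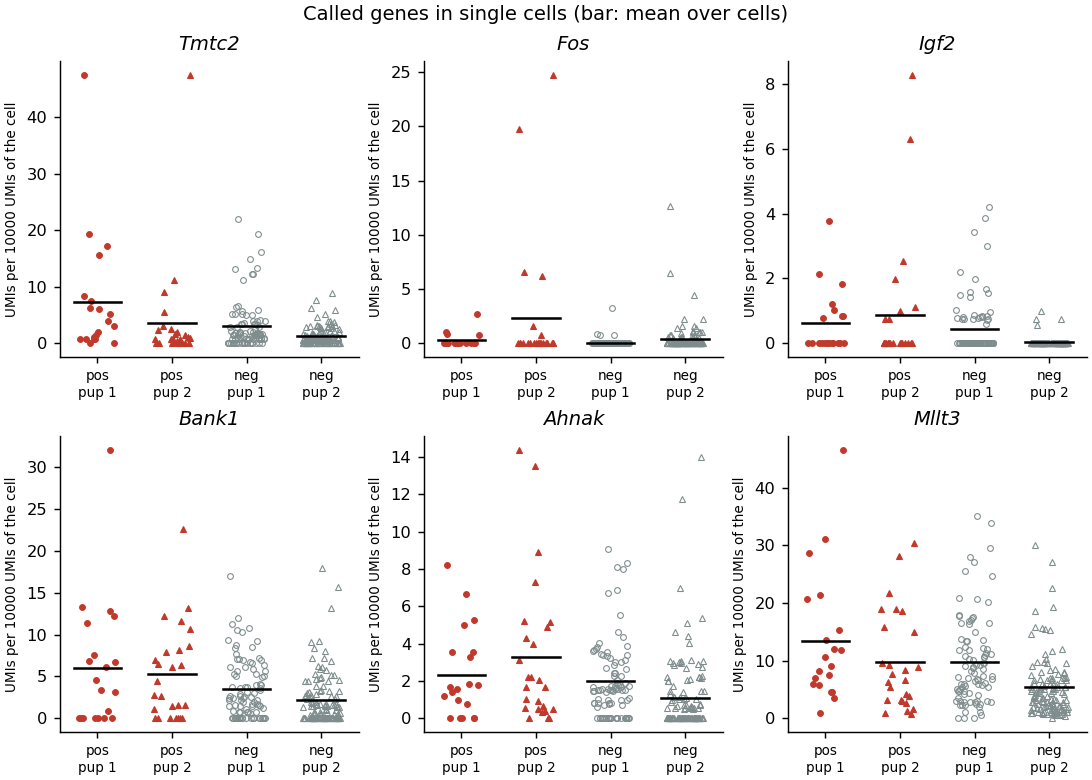
UMIs per 10000 UMIs of the cell for 6 called genes in the single cells of the 4 sums (pos, tdTomato-positive; neg, negative; bar, mean over cells). For Tmtc2 and Fos the positive means are raised by 1 or 2 cells far above the others, while Mllt3, seen in all 46 positive cells, has a broad spread.

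Malat1, an abundant nuclear noncoding RNA, was at 7352 and 5866 CPM in positive and 6801 and 3630.3 in negative cells. The ratio was 1.08 (1.02 to 1.14) in pup 1 and 1.62 (1.54 to 1.69) in pup 2, with a log2 change of 0.39 ± 0.0639 (edgeR adjusted p = 3.31e-06 with the pup term, 1.00 without). The median mitochondrial share per cell was 1.53% and 1.67% in positive and 1.72% and 1.71% in negative cells. Their part in the other results was not tested.

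Tespa1, which encodes a protein of T cell receptor signalling, was the 1 gene that fell. It had 1 UMI in positive cells of pup 1 (4.34 CPM) and 20 in those of pup 2 (45.2), against 47.3 and 94.2 CPM in negative cells. The ratio was 0.0918 (0.00228 to 0.534) and 0.480 (0.287 to 0.762), and the log2 change was -1.41 ± 0.360 (edgeR adjusted p = 0.0376 with the pup term). Both positive sums were below both negative sums, by a narrow margin between 45.2 and 47.3. Without the highest cells it was not called (edgeR adjusted p = 0.185 with the pup term).

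Genes with the lowest unadjusted p among those whose sums did not overlap included others that neither fit called. Both positive sums lay above both negative sums for 14.4% of genes tested and below them for 12.5%. On the higher side these were Myo1d, an unconventional myosin, at 30.4 and 61.0 CPM against 18.7 and 13.4, Tcirg1, a proton pump subunit, at 30.4 and 36.2 against 8.03 and 12.4, and Prrg2 at 47.7 and 33.9 against 17.8 and 7.93. On the lower side, Iigp1, an interferon-inducible GTPase, was at 4.34 and 6.78 against 26.8 and 25.8. Satb1, a chromatin organiser linked to lymphoid priming, was at 78.1 and 85.9 against 144 and 128, a ratio of 0.544 (0.314 to 0.887) and 0.672 (0.465 to 0.947). The other genes named by the same rule were Gm26542, 4933406J09Rik, Tefm, Rrp8, Gpam, Slc20a2, Trim12c, Rgs7bp, Sart3 and Mier3, with ratios of 0 to 0.709 in the 2 pups. The edgeR adjusted p with the pup term ranged from 0.0634 to 0.652 over these 15 genes.

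Cell cycle genes outside the selection were not called in either direction. Of 37 DNA replication genes tested, 3 were higher and 9 lower in both pups (8.11% and 24.3%, against 25.3% and 23.1% of all genes tested), with a median log2 change of -0.22 with the pup term. Of 37 further G2/M genes, 9 were tested, with a median of -0.35. Cdk1 was at 8.68 and 4.52 CPM in positive and 17.0 and 15.9 in negative cells. Mki67, a proliferation marker, was at 4.34 and 18.1 against 5.35 and 24.3. The positive levels of Cdk1 and Mki67 rest on few UMIs. Genes associated with quiescence gave 0 calls among 20 tested, with a median of 0.23. These levels remain after both fractions were held to 0 UMIs of 5 mitotic genes, and both lists belong to the same cell cycle programme as those genes.

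**Figure D4:**
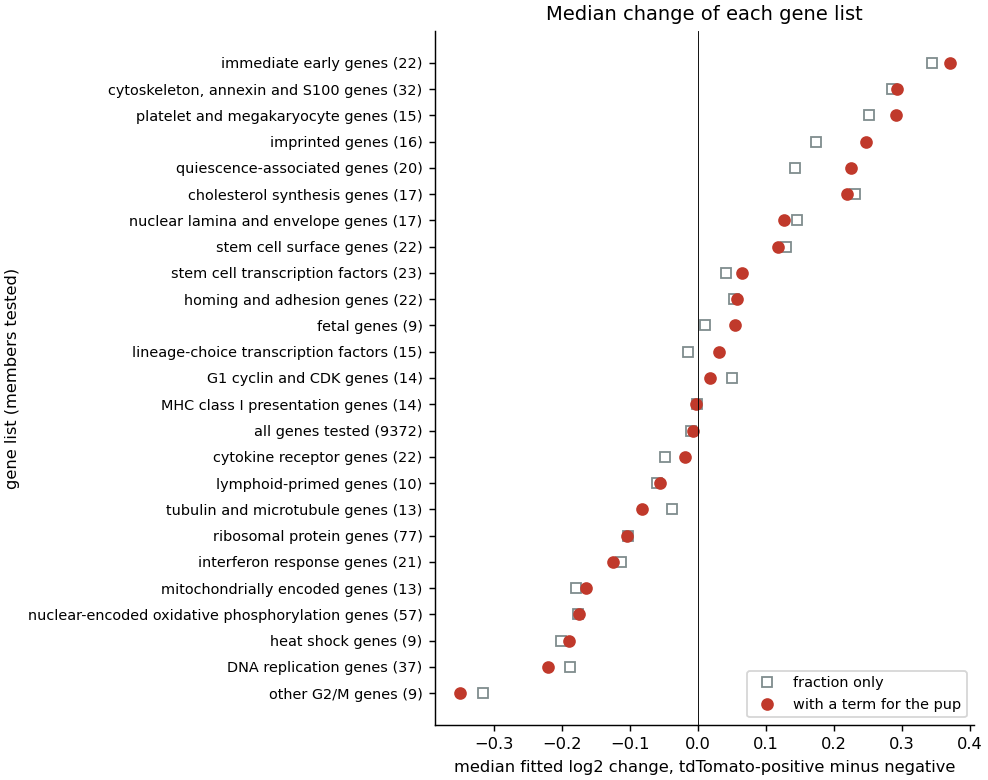
Median fitted log2 change, positive minus negative, of each gene list with at least 8 members tested, without (open squares) and with (red circles) a term for the pup. Immediate early genes have the highest median (0.34 and 0.37) and G2/M genes the lowest (-0.32 and -0.35), with all genes tested at -0.01.

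The change was also measured in stem-gated cells that did hold a UMI of a mitotic gene, 35 positive cells of pup 1 and 53 of pup 2, matched in the same way to 174 and 265 negative cells. With the pup term, edgeR called 0 of 11032 genes there (0%), with 300 at an unadjusted p under 0.05. Of the 23 genes, 21 were tested, 17 had a fitted change above 0 and 7 were higher in both pups (26.9% of all genes tested were). Tmtc2 had a log2 change of 0.36 ± 0.166 in these cells, Bank1 0.49 ± 0.148, Itsn1 0.76 ± 0.181 and Fos 0.53 ± 0.424. Plek, Adgre5, Cd200r3 and Csf1 were below 0, at -0.34, -0.48, -0.38 and -0.38. The difference between the changes in non-mitotic and mitotic cells was itself tested with an interaction term over 8 sums, and 0 of 10770 genes passed (0%), with 281 at an unadjusted p under 0.05. That lack of calls does not show that the changes were alike. The 23 genes were picked for their change in non-mitotic cells, so the smaller values in mitotic cells are a description.

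**Figure D5:**
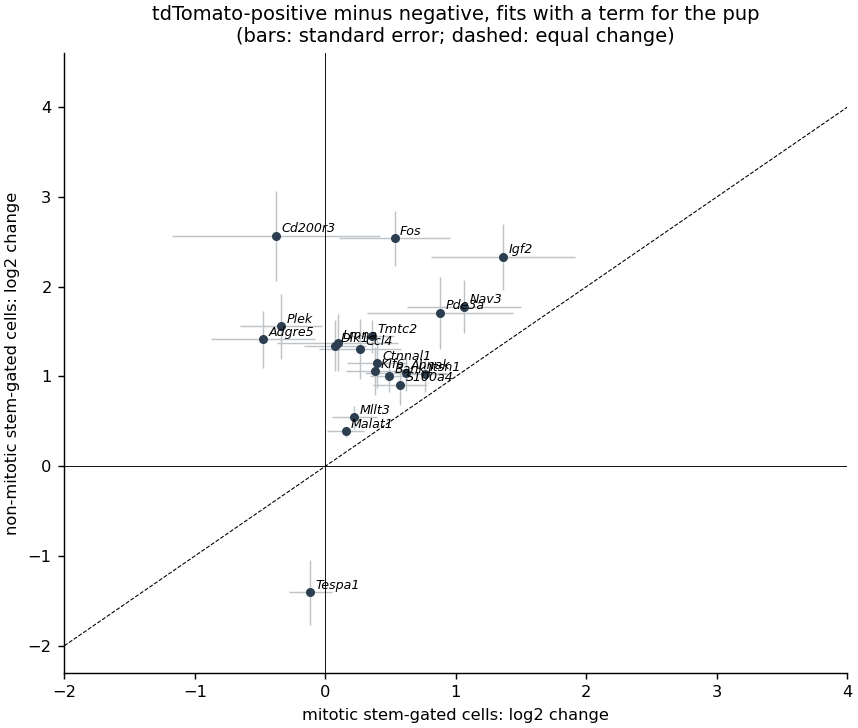
Fitted log2 change, positive minus negative, in mitotic (horizontal) and non-mitotic (vertical) stem-gated cells for the 20 called genes with at least 40 UMIs that were tested in both, with standard errors; the dashed line marks equal change. All 19 higher genes lie above the line, as their selection on the vertical axis favours.

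In both tissues Tmtc2 and Bank1 were higher in the positive cells of each pup. Of the 23 genes, 18 were tested in marrow and 19 in spleen with the pup term, and all had a fitted change above 0. In marrow 9 were called and in spleen 5, and Tmtc2 alone was called in both. The log2 change in marrow and spleen was 1.28 and 0.53 for Bank1, and 1.42 and 0.58 for Ahnak. Tmtc2 was at 939 and 583 CPM in positive marrow cells of pups 1 and 2, against 233 and 125 in negative ones, and at 665 and 160.5 in positive spleen cells against 235.5 and 113. Bank1 was at 626 and 690.1 against 281 and 255 in marrow, and 570.2 and 270.3 against 402 and 178 in spleen. S100a4 differed in marrow, at 337 and 258 against 79.2 and 86.5, and stood at 156 and 106 against 129 and 109.8 in spleen. Fos in pup 2 was at 121 against 50.5 in marrow and 351 against 24.8 in spleen. No gene passed an interaction test of the 2 tissues (0 of 7420 genes, 0%, edgeR, with 263 at an unadjusted p under 0.05). With as few as 7 positive marrow cells in pup 1, this does not show that the tissues were alike. The positive cells held 7 and 13 marrow cells and the matched negative cells 52 and 70. With matching within tissue and the pup term, 28 genes were higher and 5 lower, and 19 of the 23 were among them.

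Markers of other cell types were detected in all 4 sums. The 11 neutrophil markers summed to 208 CPM in negative cells of pup 1, of which 60.9% came from 1 cell, against 4.46 in negative cells of pup 2 and 8.68 and 79.1 in positive cells. The 16 erythroid markers summed to 994 and 807 CPM in positive and 1106 and 609 in negative cells, and 5 of them were at 0 in both positive sums, among them Gata1, Klf1, Car1 and Ermap. Both lists were higher in the negative cells of pup 1 (tube 2) than in those of pup 2 (tube 1). The 13 macrophage and monocyte markers summed to 343 and 271 against 369 and 127, with C1qb, C1qc, Vcam1, Cd5l and Marco at 0 in positive cells. The 13 myeloid progenitor markers summed to 230.02 and 362 in positive and 301 and 359.8 in negative cells, with Elane and Ly6c2 at 0 in positive cells. The 10 endothelial markers, some of which stem cells also express, summed to 282 and 185 against 244 and 158, with Stab2, Lyve1 and Flt4 at 0 in positive cells. Of the 12 T and NK cell markers 9 were at 0 in both positive sums, including Cd3d, Cd3e and Cd3g. The part of these transcripts in the calls was not tested.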

How the data were processed

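Raw UMI counts per gene and cell were deposited by the authors as 10x Genomics 3' v3 matrices, made with Cell Ranger 8.0.1 per the file headers (Cell Ranger 7.0.0 and mm10 per the submitters' processing notes). The authors' hashtag counts are in the same matrices. Members were selected by the rule in the opening, and their counts were summed per pup and fraction. No p-value rests on cells as replicates. Sums were tested with edgeR 4.0.16 (R 4.3.3; TMM, filterByExpr, quasi-likelihood test, Benjamini-Hochberg threshold 0.05), leaving out the 8 genes the rule uses, and with DESeq2 1.42.0 as an alternative. The pup term is a replicate block; both fractions came from 1 animal, and over 9374 genes the difference between pups in positive sums correlated with that in negative sums (Pearson 0.28). The highest Scrublet scores (scanpy 1.11.5), 0.8% per 1000 barcodes, were left out as an alternative only. Genes were named by rule: the 12 higher and 12 lower with the lowest p whose sums did not overlap and total at least 40 UMIs, those called with the pup term, and list members. The members and lists were chosen with earlier results of these data known. The scripts were tested on counts simulated with the variability that the pup-term fit estimated and with no tube effect. That simulation cannot give the error rate of the calls. Gene coordinates are from GENCODE vM21. A few genes are not reported here.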

Additional observations from a re-analysis of the deposited data

How the results depend on the processing

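Without a term for the pup, edgeR called 0 genes in every alternative except these. Testing without the filter on low counts gave 17 higher and 2 lower, a tube term 2 higher, and marrow cells only 2 higher. Leaving out 1 sum at a time gave 0 to 45 higher and 0 to 6 lower. It gave 14 and 1 without the positive cells of pup 1, 0 and 0 without those of pup 2, 45 and 6 without the negative cells of pup 1, and 16 and 6 without those of pup 2; the fraction left with 1 sum is then assumed to vary like the other. With the replicate block (the pup term), 23 genes were higher and 1 lower. Combined with the block, the counts were 50 and 9 with all negative cells, 32 and 4 with 10 negative cells per positive cell, 18 and 1 with 2, 28 and 5 with matching within tissue, 23 and 1 with the stricter hashtag rule, 21 and 0 with DESeq2 size factors, 18 and 0 with at least 2 UMIs of Mecom and Hlf, and 13 and 0 without cells holding sex-linked transcripts of the other pup. They were 16 and 0 with the highest cells of each gene left out, 17 and 1 in marrow, 8 and 0 in spleen, 3 and 0 with the highest Scrublet scores left out, and 1 and 0 with DESeq2 itself (Tmtc2). No gene was called with the block when mitotic cells were kept or used alone. The prior degrees of freedom of the block fit were infinite, and 18.1 with the highest Scrublet scores left out. The alternatives that combine the block with left-out cells, tissues, 2 negative cells or size factors, and the fit on mitotic cells, were chosen after seeing the data. Of 39 named genes, 1298 of 1313 alternative values kept the direction of the log2 change. These genes were picked for their change in the same sums, and most settings reuse those cells, so there was little room for a reversal. Leaving out 1 sum at a time gave -1.42 to 3.25 for Fosb and -0.92 to 2.13 for Lmna, both lowest without the positive cells of pup 2, and -0.042 to 0.82 for Malat1, lowest without the negative cells of pup 2. In mitotic cells the exceptions were Adgre5 (-0.48), Cd200r3 (-0.38), Csf1 (-0.38), Plek (-0.34), Gpam (0.20), Iigp1 (0.27), Mier3 (0.10), Rgs7bp (0.013), Satb1 (0.021), Slc20a2 (0.29) and Trim12c (0.15). With mitotic cells kept, Slc20a2 was at 0.0015. The cause of these differences between settings was not tested. With 20 and 26 positive cells, a gene below about 5 CPM is expected at no more than a few counts per positive sum.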

Other observations

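Housekeeping gene groups moved little and mostly downward in the positive cells, with 0 members called in either fit. Of 77 ribosomal protein genes, 50 were lower and 2 higher in both pups (64.9% and 2.60%, against 23.1% and 25.3% of all genes tested), with a median log2 change of -0.10. Of 57 nuclear-encoded genes of oxidative phosphorylation, 23 were lower and 2 higher in both pups, with a median of -0.18. Of 13 mitochondrially encoded genes, 7 were lower and 1 higher, and for 6 both positive sums lay below both negative sums (46.2%, against 12.5% of all genes tested). Cholesterol synthesis genes leaned the other way: of 17 tested, 8 were higher and 0 lower in both pups, with a median of 0.22.

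Genes of fetal stem cells showed no shift between the fractions that passed a test. Of 9 tested, 0 were called. Hmga2, a fetal chromatin factor, was at 746 and 682 CPM in positive and 808 and 618 in negative cells, and Lin28b, which keeps the fetal programme active, at 73.8 and 54.2 against 67.8 and 78.3. Lymphoid-primed genes had 0 calls among 10 tested, and Flt3, a receptor of early multipotent progenitors, was at 221 and 145 against 269 and 221. Lineage-choice factors (15 tested), cytokine receptors (22), antigen presentation genes of MHC class I (14) and interferon response genes (21) also had 0 calls, with medians of 0.03, -0.02, -0.00 and -0.13. Of 13 tubulin and microtubule genes tested 0 were called, and Tuba1a was at 56.4 and 42.9 against 30.3 and 32.2.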
